A study of Mus musculus with 12 samples.

Results

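The genes described here are 10 members of the Notch pathway, measured by RNA-seq in CD31+ endothelial cells of the E15.5 mouse forebrain. They are the receptors Notch1, Notch3 and Notch4, the ligands Dll1, Dll4, Jag1 and Jag2, and the target genes Hey1, Hey2 and Hes1. They were chosen by name from the 49315 genes of the count tables, with GENCODE vM21 giving the symbol of each Ensembl identifier, and none was chosen by a threshold on its values. All 10 were among the 16637 genes with enough reads to be tested, and the lowest count of any of them in any library was 24 reads.

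Each library came from 1 embryo, with 4 wild-type (WT), 4 Gpr124ΔC/ΔC and 4 Gpr124-/- embryos at the same stage. Gpr124, listed in the files as Adgra2, is a receptor of brain endothelium that helps WNT7 ligands to activate WNT/β-catenin signaling. In the Gpr124ΔC allele, made by CRISPR, a V5 tag and a stop codon replace the intracellular domain, so the rest of the receptor can still be made. The paper reports similar mRNA but a strong loss of the GPR124ΔC protein, both on the cell surface and in total. It proposes that the low protein level, and not the missing domain, could underlie the mild phenotype. Gpr124ΔC/ΔC embryos differ from WT in both, which cannot be told apart here. In the Gpr124- allele, a lacZ cassette disrupts the gene. Both mutants came from heterozygous intercrosses and carry the allele in all cells, not in endothelium alone. Forebrain cells positive for CD31 and negative for CD140b, CD45 and 7AAD were sorted, so pericytes, blood leukocytes and dead cells were gated out. The paper used this RNA-seq to ask how deletion of the intracellular domain changes the expression program of the blood-brain barrier.

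Notch receptors are activated by ligands on neighboring cells. Cleavage by ADAM10 and γ-secretase then frees the intracellular domain, which enters the nucleus and with RBPJ turns on genes such as the HES and HEY repressors. In growing vessels, DLL4 and NOTCH1 restrain the formation of tip cells and promote arterial identity.

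The 12 libraries held from 13877572 to 22551163 counted reads, with the smallest totals in Gpr124ΔC/ΔC. Adgra2 was at 28.3 to 51.1 TPM (reads per unit of gene length, rescaled so that every library has an equal sum) in WT and at 34.1 to 63.4 TPM in Gpr124ΔC/ΔC, against 4.03 to 6.29 TPM in Gpr124-/-, so the null libraries carried the label's genotype. All 8 endothelial markers were detected in every library. Their summed level was 11200 to 14700 TPM in WT, 6590 to 11200 TPM in Gpr124ΔC/ΔC and 5510 to 6710 TPM in Gpr124-/-. Cldn5, a tight junction gene, was the largest single part of that sum in every library. It was at 7610 to 10100 TPM in WT, 3530 to 6450 TPM in Gpr124ΔC/ΔC and 1880 to 2720 TPM in Gpr124-/-. Of the 8 markers, 5 passed in Gpr124-/- against WT, where 19.8% of all tested genes passed. Cldn5, Tek and Erg were lower and 2 were higher. These 2 were Pecam1, which encodes CD31 (0.54, edgeR adjusted p = 0.00778), and Cdh5, a junction gene of all endothelium (0.74, edgeR adjusted p = 0.00169). In Gpr124ΔC/ΔC against WT 1 passed, Cldn5 (-0.97, edgeR adjusted p = 0.00139), where 4.09% of all tested genes passed. Among WT libraries KE8 stood out for fibroblast markers, at 57.4 TPM summed against at most 12.5 TPM in any other library, and among Gpr124-/- libraries KE4 stood out for macrophage markers, at 13.6 TPM. The embryo names begin with J, K, L or M, whose meaning is not given in the sources used here. J marks 2 WT and 2 Gpr124ΔC/ΔC embryos, K 1 WT and 1 Gpr124-/- embryo, L 1 WT and 2 Gpr124ΔC/ΔC embryos, and M the other 3 Gpr124-/- embryos, so M and the null genotype cannot be told apart. A fit with the letter as a term therefore compares Gpr124-/- with WT through the K pair, KE4 and KE8, alone.

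Among the members, Dll1 and Hey1 differed most clearly between genotypes, and they did so in different patterns. Dll1 was lowest in WT, intermediate in Gpr124ΔC/ΔC and highest in Gpr124-/-, with no overlap between genotypes. Hey1 was lower in Gpr124ΔC/ΔC than in either other genotype. Dll4, Jag1, Jag2 and Hes1 did not pass the test in any comparison. Passing the test here means an adjusted p under 0.05 in the quasi-likelihood test of edgeR, adjusted by Benjamini-Hochberg over all tested genes, and fold changes are log2 ratios of normalized counts.

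In Gpr124-/- against WT, 1 of the 10 members passed the test, the rise of Dll1, where 19.8% of all tested genes passed. The same gene was the 1 member that also exceeded a log2 fold change of 1, against 9.88% of all genes, and the 1 member whose TPM ranges did not overlap, against 20.3% of all genes. In Gpr124ΔC/ΔC against WT, 1 member passed, the fall of Hey1, against 4.09% of all genes. None exceeded a log2 fold change of 1, against 1.92% of all genes. Ranges did not overlap for 2 members, Dll1 and Hey1, against 8.85% of all genes. In Gpr124-/- against Gpr124ΔC/ΔC, 3 members passed, Notch1, Dll1 and Hey1, all higher in Gpr124-/-, against 8.82% of all genes. Of these, Dll1 also exceeded a log2 fold change of 1, against 4.6% of all genes. Again 2 members, Dll1 and Hey1, had ranges that did not overlap, against 11.5% of all genes. The median log2 fold change of the 10 members was 0.22, -0.10 and 0.52 in these 3 comparisons, beside medians of -0.01, 0.006 and -0.018 over all tested genes. Both mutants were compared with the same 4 WT libraries, so their differences from WT are not independent of each other.

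**Figure D1:**
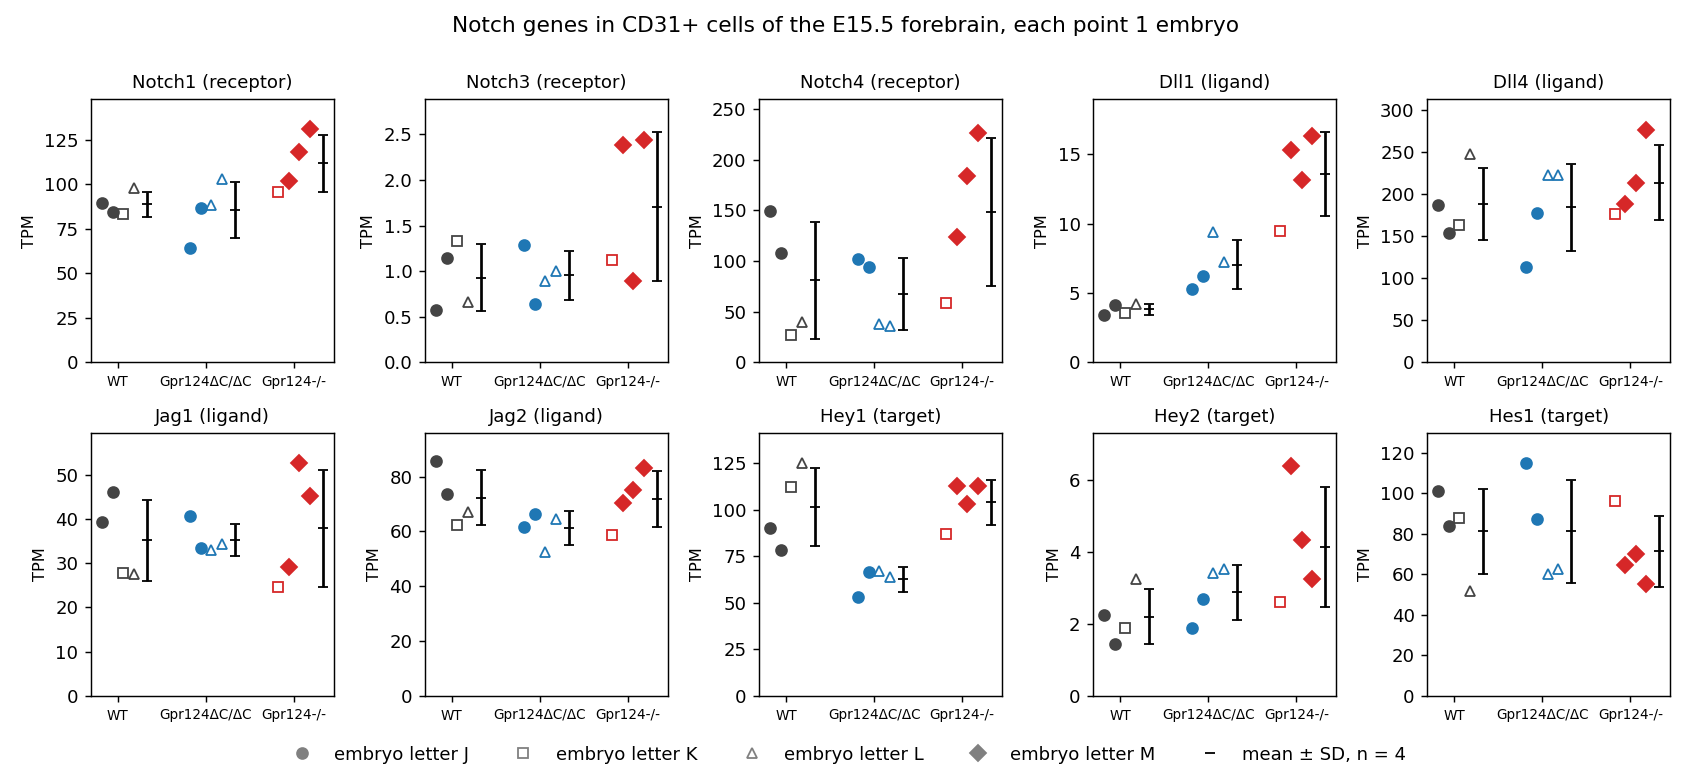
TPM (vertical axes, from 0) of the 10 members in each of the 12 embryos, grouped by genotype along the horizontal axes, with marker shapes for the first letter of the embryo name and a bar for the mean ± SD of 4 embryos. The Dll1 points climb without overlap from at most 4.18 TPM in WT to at least 9.47 TPM in Gpr124-/-. The Gpr124ΔC/ΔC points of Hey1 lie below all others, and the Notch4 points of WT and Gpr124ΔC/ΔC split by letter.

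The order of the levels, compared per gene length in TPM, was similar in the 3 genotypes. Dll4 had the highest mean in each, at 188 TPM in WT, 184 TPM in Gpr124ΔC/ΔC and 213 TPM in Gpr124-/-. Its lowest WT library was above the highest of every other member. In Gpr124ΔC/ΔC its lowest value, 113 TPM in JE3, was just below that of Hes1, at 115 TPM in the same embryo. In Gpr124-/- the ranges of Dll4 and Notch4 overlapped. Hey1, Notch1, Notch4, Hes1 and Jag2 followed, with mean levels from 61.3 to 148 TPM, and neighbors in this stretch overlapped in range except Hey1 and Jag2 in Gpr124-/-. Jag1 came next at 35.2 to 37.9 TPM, below Jag2 or Hes1 without overlap. The last 3 were Dll1, Hey2 and Notch3 in that order in every genotype, with no overlap between neighbors.

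Among the receptors, Notch1 and Notch4 made up nearly all of the receptor mRNA. Notch1, on the minus strand of chromosome 2 of GRCm38 from 26457903 to 26516663, encodes the receptor through which DLL4 acts in sprouting vessels. Its level in WT was 89.4, 84.3, 83.1 and 98.2 TPM in embryos JE1, JE6, KE8 and LE6. In Gpr124ΔC/ΔC it was 64.5, 86.5, 88.3 and 103 TPM in JE3, JE4, LE2 and LE5. In Gpr124-/- it was 95.8, 102, 118 and 131 TPM in KE4, ME1, ME4 and ME5. The Gpr124-/- values were thus mostly above the others, with LE6 and LE5 reaching into their range. The log2 fold change of Gpr124-/- against Gpr124ΔC/ΔC was 0.44 (SE 0.119, edgeR adjusted p = 0.0395), a small difference that lost its call in 14 of 22 alternative settings. Against WT it was 0.29 (95% interval 0.03 to 0.55, edgeR adjusted p = 0.113) in Gpr124-/- and -0.14 (95% interval -0.40 to 0.11) in Gpr124ΔC/ΔC, and neither passed.

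Notch4 is a receptor expressed mainly by endothelial cells, and its gene lies on the plus strand of chromosome 17 from 34564268 to 34588503. It was at 149, 108, 27.0 and 40.3 TPM in the WT embryos JE1, JE6, KE8 and LE6, and at 102, 94.3, 37.8 and 36.0 TPM in the Gpr124ΔC/ΔC embryos JE3, JE4, LE2 and LE5. In Gpr124-/-, it was at 58.3 TPM in KE4 and at 124, 184 and 226 TPM in ME1, ME4 and ME5. The genotypes overlapped widely, and within WT and Gpr124ΔC/ΔC every J embryo was above every K or L embryo. Over those 8 libraries, the mean on the log2 CPM scale, where CPM is a count relative to the library size, was 1.82 higher in J than in K and L. No comparison passed the test, with SEs up to 0.594. The log2 fold change was 0.81 in Gpr124-/- against WT (95% interval -0.47 to 2.08), -0.32 in Gpr124ΔC/ΔC against WT (-1.60 to 0.95) and 1.13 between the mutants (-0.16 to 2.42). With the embryo letter as a term in the fit, Gpr124-/- against WT gave 1.06 with an edgeR adjusted p of 0.0669.

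Notch3, best known as the receptor of pericytes and smooth muscle cells, had the lowest level of the 10 members in every genotype. It lies on the minus strand of chromosome 17 from 32120820 to 32166880. Its range was 0.574 to 1.33 TPM in WT, 0.636 to 1.29 TPM in Gpr124ΔC/ΔC and 0.893 to 2.44 TPM in Gpr124-/-, from 24 to 120 reads per library. The highest values were 2.38 TPM in ME1 and 2.44 TPM in ME5, while KE4 and ME4 lay within the WT range. The log2 fold change of Gpr124-/- against WT was 0.85 (95% interval -0.04 to 1.74) and did not pass. The direction turned with the embryo letter as a term, at -0.295 (edgeR adjusted p = 0.917), and the 1 pair within a letter, KE4 minus KE8, gave -0.29. The 9 mural markers together were at 21.7 to 42.8 TPM in WT, 12.8 to 32.4 TPM in Gpr124ΔC/ΔC and 28.9 to 42.2 TPM in Gpr124-/-, with none at 0. Within that list, 2 passed in Gpr124-/- against WT, in opposite directions, where 19.8% of all tested genes passed. Abcc9, a potassium channel subunit of pericytes, rose by 2.66 (edgeR adjusted p = 0.000327), to 7.5, 14.4, 10.5 and 13.9 TPM in KE4, ME1, ME4 and ME5. Rgs5, a pericyte gene, fell by 1.47 (edgeR adjusted p = 0.0186). The part of mural cells in the Notch3 level was not tested. Gm17276, on the opposite strand, shares 6.03% of the Notch3 exon bases and had a mean of 1.33 TPM, a level similar to that of Notch3, so the Notch3 values are uncertain where reads were counted without strand. For Notch1, 9.76% of exon bases are shared with opposite-strand genes whose means were 1.26 and 0.724 TPM.

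The fourth receptor gene, Notch2, is no member but belongs to the list of other pathway genes. It was at 3.18 to 4.27 TPM in WT, 3.18 to 3.96 TPM in Gpr124ΔC/ΔC and 2.16 to 3.15 TPM in Gpr124-/-. Every Gpr124-/- value lay below every other value, and the fall against WT was -0.60 on the log2 scale (SE 0.137, edgeR adjusted p = 0.00769). With the embryo letter as a term it was -0.72 and did not pass (edgeR adjusted p = 0.228). Of the summed TPM of the 4 receptors, Notch2 held 2.41% ± 1.06 (SD, n = 4) in WT, 2.27% ± 0.38 in Gpr124ΔC/ΔC and 1.07% ± 0.451 in Gpr124-/-. Notch1 held 55.0% ± 17.8 in WT, 56.0% ± 16.4 in Gpr124ΔC/ΔC and 44.9% ± 11.1 in Gpr124-/-, with Notch4 holding most of the rest. The summed receptor level was 175 ± 56.6 TPM, 158 ± 24.8 TPM and 264 ± 88.7 TPM in the same order. In WT and Gpr124ΔC/ΔC, these shares followed the embryo letter through Notch4. There Notch4 held 50.9% to 61.6% in the J embryos and 23.3% to 29.0% in the K and L embryos. In Gpr124-/- it held 36.9% in KE4 and 53.8% to 62.5% in the M embryos, where letter and genotype cannot be told apart.

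**Figure D2:**
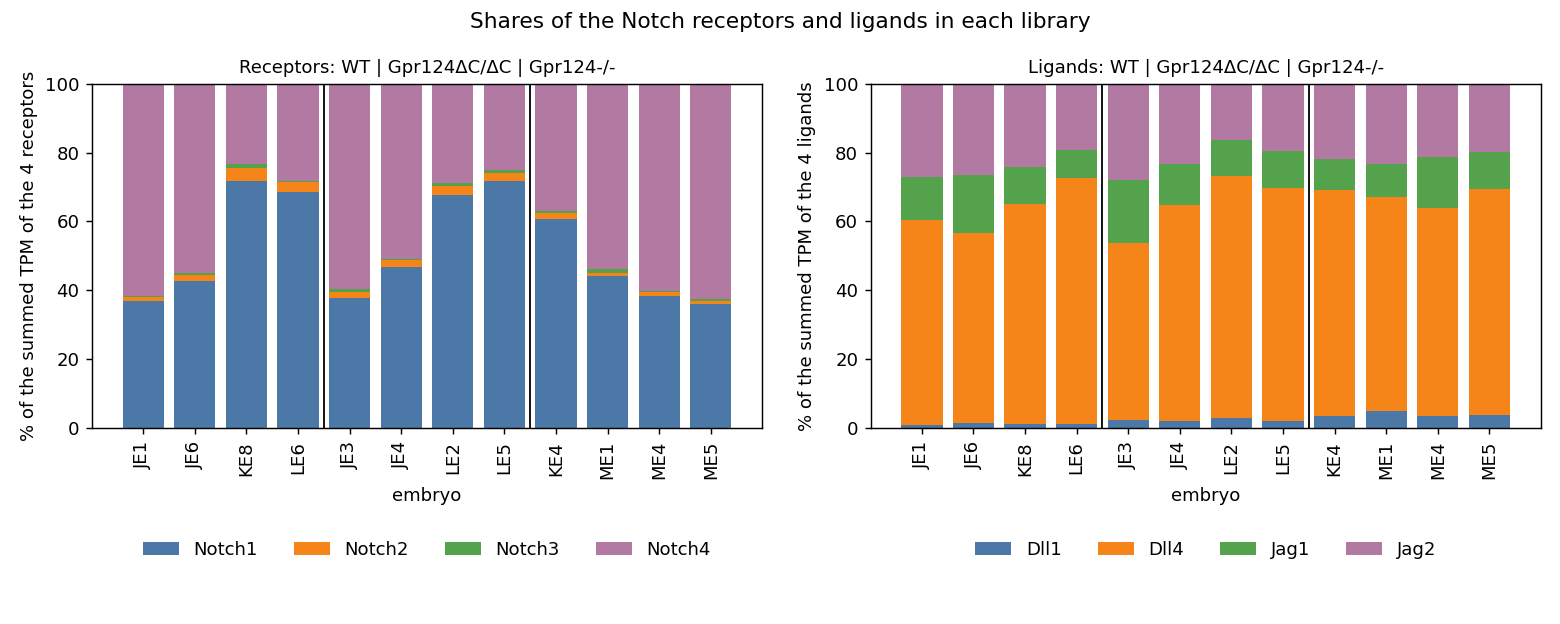
Share of the summed TPM (vertical axes, %) held by each of the 4 receptors (left) and each of the 4 ligands (right) in every embryo (horizontal axes), with vertical lines between WT, Gpr124ΔC/ΔC and Gpr124-/-. Dll4 holds 51.3% to 71.5% of the ligand sum in every embryo, and the Notch4 share changes with the embryo letter in WT and Gpr124ΔC/ΔC.

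Among the ligands, Dll1 showed the clearest difference of all members. Dll1 is a Delta-type ligand used in neural progenitors, the somites and arterial endothelium, and its gene (ENSMUSG00000014773) lies on the minus strand of chromosome 17 from 15367354 to 15376872. It was at 3.38, 4.17, 3.57 and 4.18 TPM in the WT embryos JE1, JE6, KE8 and LE6. In Gpr124ΔC/ΔC it was at 5.28, 6.22, 9.37 and 7.24 TPM in JE3, JE4, LE2 and LE5, all above the highest WT embryo. In Gpr124-/- it was at 9.47, 15.3, 13.1 and 16.3 TPM in KE4, ME1, ME4 and ME5, all above the highest Gpr124ΔC/ΔC embryo, though KE4 and LE2 differed by little. The mean was 3.82 ± 0.411 TPM (SD, n = 4) in WT, 7.03 ± 1.76 TPM in Gpr124ΔC/ΔC and 13.6 ± 3.05 TPM in Gpr124-/-, which is 1.84 and 3.56 times the WT mean.

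From the counts, Dll1 rose in Gpr124-/- against WT by 1.79 on the log2 scale (SE 0.207, 95% interval 1.34 to 2.24, edgeR adjusted p = 5.1e-05). It was also higher in Gpr124-/- than in Gpr124ΔC/ΔC, by 1.01 (SE 0.203, 95% interval 0.57 to 1.45, edgeR adjusted p = 0.00863). The difference of Gpr124ΔC/ΔC from WT was 0.78 (SE 0.206, 95% interval 0.33 to 1.23) and just missed the threshold (edgeR adjusted p = 0.0546). It passed under 7 of 22 alternatives, DESeq2 among them (adjusted p = 0.0123). Within embryo letters, Dll1 was higher in Gpr124ΔC/ΔC than in WT by 0.55 among J embryos and by 0.86 among L embryos on the log2 CPM scale. In the single K pair, it was 1.34 higher in Gpr124-/-. With the letter as a term the rise of Gpr124-/- against WT was 1.36, and the difference between the mutants was 0.68, below the 1.01 without it. That fit compares Gpr124-/- with WT through the same K pair alone, so 1.36 and 1.34 are not independent. Without KE4, the library high in macrophage markers, the rise in Gpr124-/- was 1.94 (edgeR adjusted p = 1.24e-05), and without KE8, high in fibroblast markers, it was 1.75 (edgeR adjusted p = 0.000279).

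The part of other cells in the Dll1 levels was not tested, and the marker levels are given beside them. Of all tested genes, 19.8% passed in Gpr124-/- against WT, 4.09% in Gpr124ΔC/ΔC against WT and 8.82% between the mutants. Of the 5 erythroid markers, 3 passed in Gpr124-/- against WT and all 5 between the mutants, each higher in Gpr124-/-, and 0 in Gpr124ΔC/ΔC against WT, where their median log2 fold change was -0.42. Their sums were 5010 to 7000 TPM in WT, 3730 to 5920 TPM in Gpr124ΔC/ΔC and 11400 to 33500 TPM in Gpr124-/-. The 7 neural progenitor markers summed to 32.3 to 49.6 TPM in WT, 22.9 to 42.9 TPM in Gpr124ΔC/ΔC and 32.7 to 44.6 TPM in Gpr124-/-, a sum that is mostly Fabp7. Of the 6 tested, 1 passed against WT, Slc1a3, a glutamate transporter of radial glia, which fell by 2.15 in Gpr124-/- and by 1.95 in Gpr124ΔC/ΔC. The 6 neuron markers summed to 49.3 to 125 TPM in WT, 78.5 to 141 TPM in Gpr124ΔC/ΔC and 106 to 135 TPM in Gpr124-/-. Of these, only 1 passed in any comparison, Stmn2. It was at 9.87 to 19.6 TPM in WT, 17.6 to 25.7 TPM in Gpr124ΔC/ΔC and 26.0 to 40.1 TPM in Gpr124-/-. It rose by 1.25 in Gpr124-/- against WT (edgeR adjusted p = 0.00109) and was 0.73 higher in Gpr124-/- than in Gpr124ΔC/ΔC (edgeR adjusted p = 0.0498). Sorted cells were sequenced in bulk, so more Dll1 per cell and more cells that express it cannot be told apart. The long noncoding gene A930024N18Rik shares 20.5% of the exon bases of Dll1 on the opposite strand, at a mean of 0.236 TPM, and it is not given whether reads were counted by strand.

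Promoter windows of RefSeq (GRCm38.p6), which open 250 bases before each start, were used for 8 of the 10 members, and those of Hey1 and Hes1 were not analysed here. Dll1 has 2 such windows. The upstream one is shown because Dll1 is the ligand that moved, and that of Dll4 because it is the most abundant ligand and did not pass the test. Capitals mark CACGCG, a sequence that HES and HEY repressors can bind.
Dll1, chr17:15376933-15377182, minus strand: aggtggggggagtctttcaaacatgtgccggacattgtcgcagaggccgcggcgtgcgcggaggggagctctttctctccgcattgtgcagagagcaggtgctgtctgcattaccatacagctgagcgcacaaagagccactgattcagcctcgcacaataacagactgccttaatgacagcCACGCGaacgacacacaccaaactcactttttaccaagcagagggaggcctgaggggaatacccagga
Dll4, chr2:119325534-119325783, plus strand: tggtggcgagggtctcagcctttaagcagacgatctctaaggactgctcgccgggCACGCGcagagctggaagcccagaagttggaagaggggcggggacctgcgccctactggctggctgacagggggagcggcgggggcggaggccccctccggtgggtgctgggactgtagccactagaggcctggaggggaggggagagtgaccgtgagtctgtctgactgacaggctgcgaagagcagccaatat
Each window holds 1 match, whose first base lies 68 bases before the RefSeq start of Dll1 and 195 bases before that of Dll4. This Dll1 start lies 60 bases upstream of the gene's start in GENCODE, and the bases after it were not found in a GENCODE transcript of Dll1. The other Dll1 window, which reaches into a GENCODE first exon and is not printed, holds no match. The windows of all 8 members were searched on both strands for CACGCG, for TGGGAA (a core of RBPJ sites), for CTTTGA (a core of TCF/LEF sites) and for CACGTG (an E-box). Apart from these, the matches were 2 of CACGCG upstream of Jag1 and 1 of TGGGAA upstream of Hey2. Of all 32851 promoter windows, 7.62% held CACGCG, 21.6% TGGGAA, 13.8% CTTTGA and 6.02% CACGTG. None of these motifs overlaps another in the members' windows, and a match describes letters only.

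Dll4, the main ligand of sprouting and arterial endothelium, lies on the plus strand of chromosome 2 from 119325784 to 119335962. It was at 187, 154, 163 and 248 TPM in WT, at 113, 178, 223 and 222 TPM in Gpr124ΔC/ΔC and at 176, 188, 213 and 276 TPM in Gpr124-/-, in the embryo order given for Notch1. The genotypes overlapped, with both the lowest (JE3) and the highest value (ME5) in a mutant. The 95% intervals of the log2 fold change were -0.26 to 0.56 in Gpr124-/- and -0.54 to 0.28 in Gpr124ΔC/ΔC against WT. Dll4 held 62.4% ± 6.93 (SD, n = 4) of the ligand sum in WT, 62.9% ± 8.37 in Gpr124ΔC/ΔC and 63.4% ± 2.66 in Gpr124-/-. Dll1 held 1.29% ± 0.192, 2.44% ± 0.355 and 4.04% ± 0.688, so it remained a minor part of the ligand mRNA in each genotype. The antisense gene Gm14207, at 28.8 to 54.8 TPM, shares 5.56% of the Dll4 exon bases and did not pass in any comparison. Its log2 fold change was -0.10 in Gpr124-/- against WT (95% interval -0.35 to 0.15), -0.42 in Gpr124ΔC/ΔC against WT (-0.68 to -0.17, edgeR adjusted p = 0.0704) and 0.32 between the mutants (0.07 to 0.58), whose ranges did not overlap.

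Jag1 and Jag2 encode ligands of the Serrate type. In blood vessels, JAG1 can oppose DLL4 at the tip cell and also signals to mural cells. Jag1, on the minus strand of chromosome 2 from 137081456 to 137116644, ranged from 27.6 to 46.1 TPM in WT, from 32.9 to 40.7 TPM in Gpr124ΔC/ΔC and from 24.7 to 52.7 TPM in Gpr124-/-. Both the lowest and the highest embryo, KE4 and ME4, were Gpr124-/-, and the log2 fold changes against WT were 0.05 in Gpr124-/- (95% interval -0.52 to 0.62) and -0.07 in Gpr124ΔC/ΔC (-0.64 to 0.50). Jag2, on the minus strand of chromosome 12 from 112908590 to 112929495, ranged from 62.3 to 85.6 TPM in WT, from 52.5 to 66.5 TPM in Gpr124ΔC/ΔC and from 58.6 to 83.2 TPM in Gpr124-/-. The Gpr124ΔC/ΔC embryos were at the low end of the WT range or below it, with a log2 fold change of -0.31 (95% interval -0.65 to 0.02, edgeR adjusted p = 0.40) that did not pass. For Gpr124-/- against WT, Jag2 gave -0.05 (95% interval -0.39 to 0.28).

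Among the target genes, Hey1 was lower in Gpr124ΔC/ΔC alone. Hey1 encodes a transcriptional repressor induced by Notch in endothelium, and the gene (ENSMUSG00000040289) lies on the minus strand of chromosome 3 from 8663359 to 8667256. It was at 90.3, 78.3, 112 and 125 TPM in the WT embryos JE1, JE6, KE8 and LE6. In Gpr124ΔC/ΔC it was at 52.9, 66.8, 67.1 and 63.8 TPM in JE3, JE4, LE2 and LE5. In Gpr124-/- it was at 87.1, 113, 103 and 113 TPM in KE4, ME1, ME4 and ME5. All 4 Gpr124ΔC/ΔC embryos were below every other embryo, and the Gpr124-/- embryos lay within the WT range.

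The fall of Hey1 in Gpr124ΔC/ΔC against WT was -0.77 on the log2 scale (SE 0.130, 95% interval -1.05 to -0.49, edgeR adjusted p = 0.00409), with a mean TPM of 0.62 times the WT mean. Gpr124-/- against WT gave 0.01 (95% interval -0.27 to 0.29, edgeR adjusted p = 0.973). The difference between the mutants was itself past the test, with Gpr124-/- 0.78 above Gpr124ΔC/ΔC (SE 0.130, 95% interval 0.50 to 1.06, edgeR adjusted p = 0.00304). Within embryo letters, Gpr124ΔC/ΔC was below WT by 0.55 on the log2 CPM scale among J embryos and by 1.04 among L embryos. In the K pair, the Gpr124-/- embryo was 0.41 below its WT counterpart. With the letter as a term, the fall in Gpr124ΔC/ΔC kept its call (-0.75, edgeR adjusted p = 0.00089) and the difference between the mutants lost it (0.34, edgeR adjusted p = 0.813). In that fit the null genotype is compared with WT through KE4 and KE8 alone. Without KE8 the fall in Gpr124ΔC/ΔC was -0.73 (edgeR adjusted p = 0.0115), and without KE4 the difference between the mutants was 0.87 (edgeR adjusted p = 0.000794).

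Hey2, a repressor of the same family with a role in arterial fate, lies on the minus strand of chromosome 10 from 30832359 to 30842801. It was at 2.24, 1.43, 1.90 and 3.24 TPM in WT, at 1.88, 2.69, 3.41 and 3.53 TPM in Gpr124ΔC/ΔC and at 2.60, 6.41, 4.33 and 3.25 TPM in Gpr124-/-, in the same embryo order. The upper Gpr124-/- embryos, ME1 and ME4, exceeded all others, and the remaining values overlapped. The log2 fold change of Gpr124-/- against WT was 0.89 (SE 0.303, 95% interval 0.23 to 1.54) and missed the threshold narrowly (edgeR adjusted p = 0.0569), while DESeq2 gave an adjusted p of 0.0229. It was 0.40 in the fit with the embryo letter (edgeR adjusted p = 0.793). Hey2 had 43 to 157 reads per library.

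Hes1, a repressor that answers to Notch in many tissues and keeps neural progenitors undifferentiated, lies on the plus strand of chromosome 16 from 30064384 to 30067796. It ranged from 51.9 to 101 TPM in WT, from 60.1 to 115 TPM in Gpr124ΔC/ΔC and from 55.3 to 96.0 TPM in Gpr124-/-. The ranges nearly coincided, and J embryos were on average 0.71 above K and L embryos on the log2 CPM scale in the genotypes other than Gpr124-/-. The log2 fold change was -0.24 in Gpr124-/- (95% interval -0.84 to 0.36) and -0.05 in Gpr124ΔC/ΔC (-0.65 to 0.55) against WT. Of the 3 targets, Hey1 passed only in comparisons with Gpr124ΔC/ΔC and Hey2 and Hes1 in none.

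**Figure D3:**
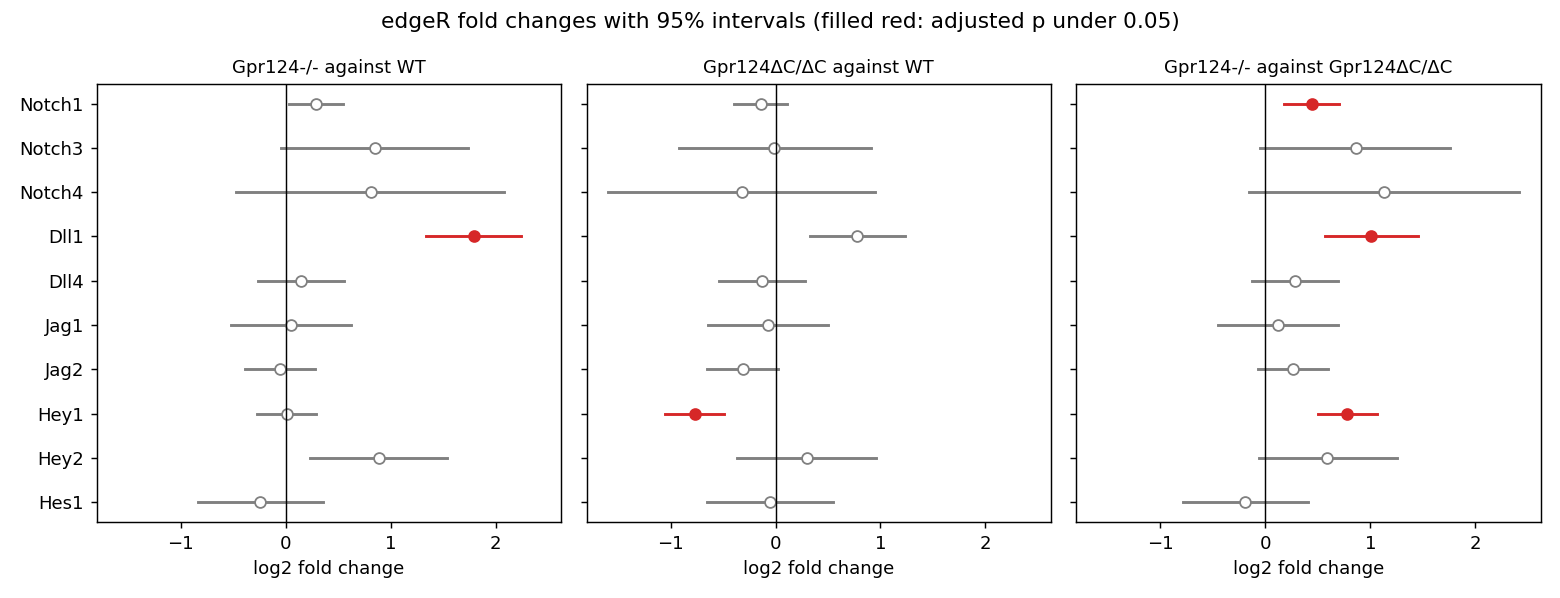
Log2 fold changes (horizontal axes) of the 10 members in the 3 comparisons, as points with 95% intervals from edgeR and with filled red points for an adjusted p under 0.05. Dll1 is filled in both comparisons with Gpr124-/-, Hey1 in both with Gpr124ΔC/ΔC, and the intervals of Notch4 are the widest of the 10 members.

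Around these members, 49 other genes of ligand processing, receptor modification, cleavage, transcription and feedback were listed, of which 44 had enough reads to be tested. In Gpr124-/- against WT, 10 of the 44 (22.7%) passed, 5 higher and 5 lower, and their share is near the 19.8% of all genes. The split rests on single libraries, since 2 higher and 5 lower passed without LE6, without ME1 or without ME5. With the embryo letter as a term 6 passed higher and 2 lower. In Gpr124ΔC/ΔC against WT none of the 44 passed in edgeR with genotype as the only term, where 4.09% of all genes passed. Of the 44, 6 had an unadjusted p under 0.05. DESeq2 called 1 gene, Dlk1, and edgeR with the embryo letter as a term called 2, Dtx4 and Nrarp. Of all genes, 6.44% and 5.9% passed in those settings. Between the mutants 5 of 44 (11.4%) passed, against 8.82% of all genes. The list's median log2 fold change was 0.10 in Gpr124-/- against WT, -0.04 in Gpr124ΔC/ΔC against WT and 0.10 between the mutants.

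Of the genes for receptor cleavage, Adam10, the protease of the first cut, ranged from 156 to 293 TPM in Gpr124-/- and from 308 to 485 TPM in WT. Its log2 fold change in Gpr124-/- against WT was -0.83 (SE 0.198, edgeR adjusted p = 0.00967), and with the embryo letter as a term it was -0.93 and did not pass (edgeR adjusted p = 0.0939). Aph1a, a γ-secretase subunit, also fell (-0.57, edgeR adjusted p = 0.00706), from 41.9 to 66.9 TPM in WT to 33.6 to 39.4 TPM in Gpr124-/-. Its paralog Aph1b rose by 1.05 (SE 0.147, edgeR adjusted p = 0.000238), from 3.30 to 4.62 TPM in WT to 7.87 to 9.44 TPM in Gpr124-/-, with Gpr124ΔC/ΔC between them at 4.67 to 6.67 TPM. Aph1c rose as well (1.21, edgeR adjusted p = 0.0455) at under 1 TPM, but Aph1b and Aph1c are near-identical copies whose reads the counting could split, so their values are uncertain. With the letter as a term, Aph1c did not pass (edgeR adjusted p = 0.808). Psen2, a catalytic subunit of γ-secretase, gave 0.42 (edgeR adjusted p = 0.0548) and did not pass. It passed with DESeq2, with a mean of at least 50 counts and without KE4.

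Of the list's 11 ubiquitin ligase genes, grouped after their values were seen, 3 passed in Gpr124-/- against WT, 1 higher and 2 lower, beside 19.8% of all genes. Neurl1b, a Neuralized ligase that promotes the uptake of Notch ligands, rose by 1.42 in Gpr124-/- against WT, from 2.21 to 4.39 TPM in WT to 6.65 to 10.3 TPM. Dtx4, a Deltex ligase, fell by 1.52, from 13.8 to 20.2 TPM in WT to 4.19 to 7.16 TPM. Dtx3l, of the same family, also fell, from 18.5 to 31.2 TPM in WT to 9.93 to 15.6 TPM in Gpr124-/-, with a log2 fold change of -1.0 that became -0.83 and did not pass with the letter as a term (edgeR adjusted p = 0.121). In Gpr124ΔC/ΔC, Dtx4 was at 9.44 to 14.0 TPM and did not pass (-0.58), except with the embryo letter as a term (-0.59, edgeR adjusted p = 0.0357). Numbl, a homolog of the Notch inhibitor Numb, rose by 1.34 (edgeR adjusted p = 0.0394) and stayed under 3 TPM, while Numb itself gave 0.01. The call of Numbl was lost without KE8, LE6, ME1, ME4 or ME5 and with limma on log2(TPM + 0.1). With the embryo letter as a term, which compares KE4 with KE8 alone, its log2 fold change was 2.59. Rbpj, the DNA-binding partner of the Notch intracellular domain, gave 0.25 in Gpr124-/- and -0.04 in Gpr124ΔC/ΔC and passed in neither. Its WT level was 8.14 TPM in KE8 and 3.33 to 4.84 TPM in the other embryos. Without KE8, Rbpj passed in Gpr124-/- against WT.

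Lfng, Mfng and Rfng encode glycosyltransferases of the Fringe family, which modify the receptors and bias them toward Delta ligands. Lfng ranged from 67.7 to 136 TPM and Mfng from 140.0 to 218 TPM over all libraries, and no comparison of either passed the test. Rfng split by embryo letter, at 31.4 to 36.9 TPM in the J embryos and at 8.23 to 17.7 TPM in the WT and Gpr124ΔC/ΔC embryos of K and L. In Gpr124-/- it was at 25.2 TPM or more. In Gpr124-/- against WT it gave 0.25 and did not pass. With the letter as a term, which compares KE4 with KE8 alone, it was 1.57. Heyl and Hes5, further targets, were below 5 TPM in every library. Hes5 was at 0.82 and 1.12 TPM in LE2 and LE5 and at 2.35 TPM or more in every other library. In Gpr124ΔC/ΔC against WT, the log2 fold change was -0.97 for Hes5 (edgeR adjusted p = 0.237) and -0.81 for Heyl (edgeR adjusted p = 0.206). Both values had the direction of the Hey1 fall. In Gpr124-/- against WT, Hes5 gave 0.17 and Heyl -0.18. Between the mutants, Hes5 was 1.14 higher in Gpr124-/-, without overlap in range, and Heyl 0.62 higher. No comparison of either gene passed. Dlk1, a noncanonical ligand, was at 0.473 to 1.17 TPM in Gpr124ΔC/ΔC, against 1.21 to 2.16 TPM in WT and 1.33 to 3.55 TPM in Gpr124-/-. It passed between the mutants (1.41, edgeR adjusted p = 0.0334) and not against WT.

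Nrarp, a Notch target that feeds back on the pathway, split by embryo letter even more than Notch4. It was at 60.3 and 55.6 TPM in the WT embryos JE1 and JE6 but at 6.01 and 9.72 TPM in KE8 and LE6. In Gpr124ΔC/ΔC it was at 41.8 and 39.6 TPM in JE3 and JE4 and at 5.71 and 5.40 TPM in LE2 and LE5. Over these 8 libraries, the mean was 3.01 higher in J than in K and L on the log2 CPM scale. In Gpr124-/- it was at 24.2 TPM in KE4 and at 60.7 to 95.7 TPM in the M embryos. Within letters, Gpr124ΔC/ΔC was below WT by 0.56 in J and 0.89 in L, and KE4 was 1.94 above KE8. The test without the letter did not pass for Nrarp. With the letter as a term it was -0.67 in Gpr124ΔC/ΔC against WT and passed (edgeR adjusted p = 0.023). That fit links Gpr124-/- to WT through KE4 and KE8 alone, and it gave 1.96 against WT and 2.63 against Gpr124ΔC/ΔC.

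**Figure D4:**
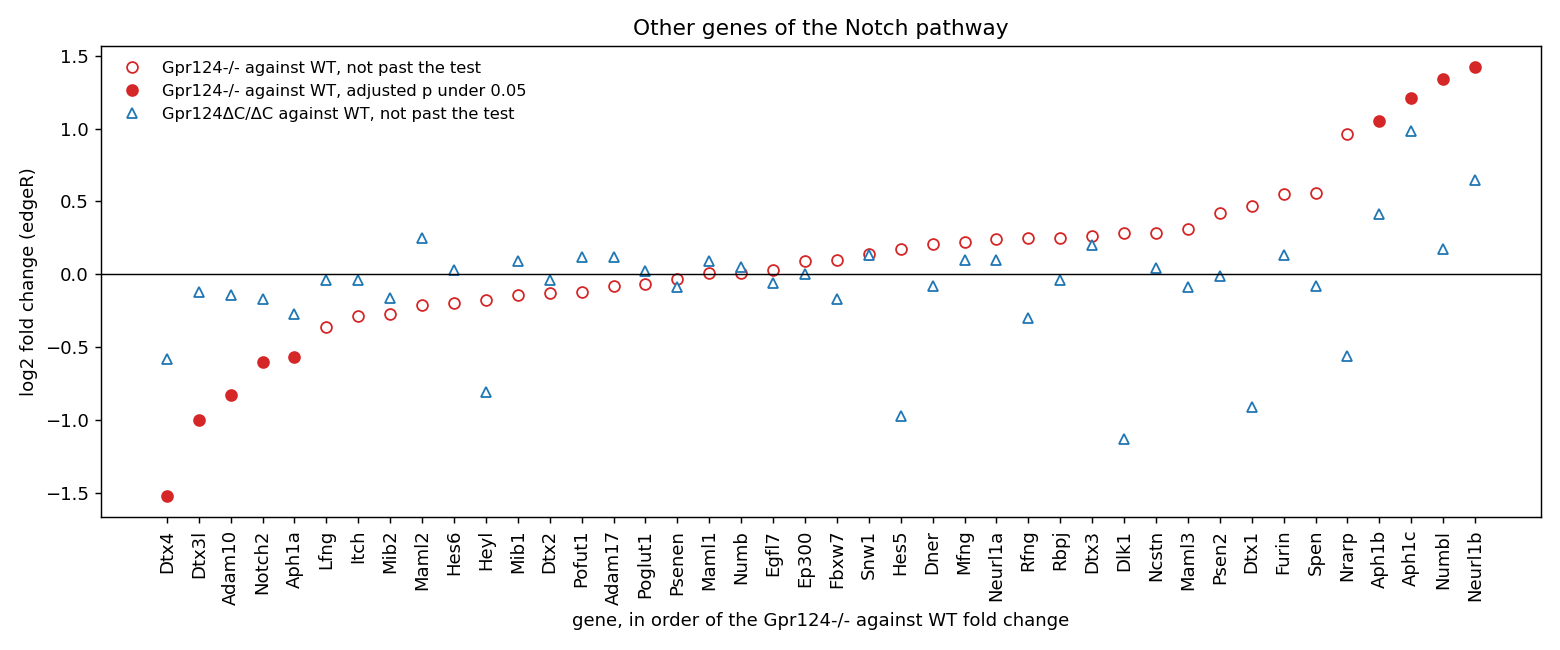
Log2 fold changes (vertical axis, edgeR) of 42 of the 44 tested genes of the pathway list, in order along the horizontal axis of their value in Gpr124-/- against WT (circles), with Gpr124ΔC/ΔC against WT as triangles and filled symbols for an adjusted p under 0.05. The 9 filled circles lie at both ends of the order, from -1.52 for Dtx4 to 1.42 for Neurl1b, and no triangle is filled.

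Of 6 arterial genes linked to Notch, 2 passed in Gpr124-/- against WT, in opposite directions, where 19.8% of all genes passed, and 1 in Gpr124ΔC/ΔC against WT, where 4.09% passed. Gja5, the gap junction gene of arterial endothelium, was at 28.1 to 45.8 TPM in WT and 38.5 to 102 TPM in Gpr124-/- and rose by 1.06 (edgeR adjusted p = 0.0103). Gja4, another arterial gap junction gene, fell by 0.74 in Gpr124-/- (edgeR adjusted p = 0.00303) and by 0.72 in Gpr124ΔC/ΔC (edgeR adjusted p = 0.0129) against WT. Efnb2, Cxcr4, Sox17 and Unc5b did not pass in any comparison. Efnb2, for the ligand ephrin-B2 of arteries, gave 1.04 in Gpr124-/- against WT (edgeR adjusted p = 0.0735). It followed the embryo letter in WT, with 35.0 and 35.3 TPM in JE1 and JE6 against 16.6 and 17.7 TPM in KE8 and LE6.

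For the member of each role with the largest fold change in Gpr124-/- against WT, the genes with the most similar log2 CPM over the 12 libraries were found, leaving out genes whose mean was below 8 CPM. These correlations include the differences between genotypes and embryo letters, which the libraries share. For Dll1 they were Gypc (r = 0.986), Olfml2b (r = 0.986) and Spry4 (r = 0.985). Gypc encodes a glycophorin and Spry4 an inhibitor of receptor tyrosine kinase signaling. Olfml2b had mean levels of 4.01, 13.4 and 52.0 TPM in WT, Gpr124ΔC/ΔC and Gpr124-/-, a steeper climb than that of Dll1. For Hey2 they were Gramd1c (r = 0.936), Rgs18 (r = 0.93) and Plek (r = 0.926), and for Notch3 they were Inf2 (r = 0.89), Trib1 (r = 0.843) and Hectd4 (r = 0.837). For 2 more members added after their values were seen, the closest genes were Wsb2 (r = 0.995) to Notch4 and Madcam1 (r = 0.912) to Hey1. Efnb3, an ephrin with r = 0.908 to Hey1, was also lower in Gpr124ΔC/ΔC than in WT (-1.11, edgeR adjusted p = 0.00397) and not different past the threshold in Gpr124-/- (-0.06).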

How the data were processed

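RNA-seq libraries from CD31+ cells of 12 embryos were analyzed, 4 of each genotype. Per the labels and the study's methods, RNA was isolated with PicoPure, amplified with SMART-Seq V4 and sequenced as paired-end poly(A) libraries, with bcl2fastq 2.17 and mm10 listed in the submitters' processing notes. The aligner, counter and strand setting are not given in the sources used here. The authors deposited unnormalized counts for 49315 genes and TPM values. Values above 1 TPM differed from TPM recomputed from counts and lengths by at most 0.00498%. Of the identifiers, 49056 were named by GENCODE vM21.

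Counts were tested with edgeR 4.0.16 in R 4.3.3 (glmQLFit, glmQLFTest) with TMM factors, genotype as the term and filterByExpr at its defaults (minimum count 10, minimum total 15), which left 16637 genes. Benjamini-Hochberg adjustment ran over these genes. SEs are the fold change divided by the square root of F. CPM had a prior count of 2. Alternatives were upper-quartile and DESeq2 size factors, other filters, DESeq2 1.42.0, only the 2 compared genotypes, the embryo letter as a term, limma 3.58.1 on log2(TPM + 1) or log2(TPM + 0.1), with a mean TPM of at least 1 or no filter, and leaving out each library. The models were tested on simulated data. Depth ranged from 13877572 to 22551163 reads, and 4 embryos per genotype limit the precision. Named genes were all members, pathway genes past the test in any comparison (1 is not reported here), Notch2, Rbpj, Hes5, Heyl, Nrarp, Lfng and Mfng, arterial genes, markers, Adgra2 and the 3 genes most like 1 member per role. Psen2, Numb, Rfng and Gm14207 were named after their values were seen. The members and lists were chosen with earlier results of these data known. Promoters are from RefSeq.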

Additional observations from a re-analysis of the deposited data

Results flagged for a closer look

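Effects that differed between the mutants, by the edgeR test of Gpr124-/- against Gpr124ΔC/ΔC, were found for 3 members and 5 other pathway genes. The differences on the log2 scale (Gpr124-/- minus Gpr124ΔC/ΔC) were 1.01 for Dll1 (edgeR adjusted p = 0.00863), 0.78 for Hey1 (edgeR adjusted p = 0.00304) and 0.44 for Notch1 (edgeR adjusted p = 0.0395). Dlk1 (1.41, edgeR adjusted p = 0.0334) and Aph1b (0.64, edgeR adjusted p = 0.0171) were also higher in Gpr124-/-, while Dtx4 (-0.94, edgeR adjusted p = 0.0242), Dtx3l (-0.88, edgeR adjusted p = 0.0364) and Adam10 (-0.69, edgeR adjusted p = 0.0474) were lower. With the embryo letter as a term, none of these 8 genes passed, and the share of all tested genes that passed fell from 8.82% to 1.27%. In that fit the differences were 0.68 for Dll1, 0.34 for Hey1, 0.38 for Notch1, 1.22 for Dlk1, 1.04 for Aph1b, -0.50 for Dtx4, -0.56 for Dtx3l and -0.77 for Adam10, each in its former direction. No library lay apart from its group by Dixon's criterion at the 95% level in the 30 groups of the 10 members and 3 genotypes.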

How the results depend on the processing

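The 30 fold changes of the members were recomputed in 22 alternatives, 660 values in all. Of these, 587 kept their direction and side of the threshold, 12 gained a call, 17 lost one and 44 turned in sign, and every turn in sign was for a fold change that had not passed. With the embryo letter as a term, the fold changes against WT in Gpr124-/- turned to -0.295 for Notch3, -0.211 for Jag1, -0.406 for Hey1 and 0.081 for Hes1. Against WT, those in Gpr124ΔC/ΔC turned to 0.26 for Notch3 and 0.118 for Hes1, and those between the mutants to -0.555 for Notch3 and -0.135 for Jag1. Notch3 in Gpr124ΔC/ΔC against WT was also 0.023 with upper-quartile factors, 0.011 with a mean of at least 50 counts, 0.002 with the 2 genotypes only, and 0.03, 0.073 and 0.03 with limma (pseudocount 1, 0.1, and 1 without a filter), where Jag1 was 0.037, 0.039 and 0.037. Leaving out 1 library gave these ranges. In Gpr124ΔC/ΔC against WT they were -0.287 to 0.186 for Notch3, -0.698 to 0.114 for Notch4, -0.217 to 0.004 for Dll4, -0.23 to 0.141 for Jag1 and -0.362 to 0.099 for Hes1. In Gpr124-/- against WT they were -0.004 to 0.282 for Dll4, -0.125 to 0.262 for Jag1, -0.139 to 0.05 for Jag2 and -0.062 to 0.102 for Hey1. Between the mutants they were -0.053 to 0.292 for Jag1 and -0.345 to 0.122 for Hes1.

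In Gpr124-/- against WT, the members past the test numbered 2 (Dll1 and Hey2) with a mean of at least 50 counts and with DESeq2, and 1 to 3 without 1 library, with 3 (Notch1 added) without KE4 and 2 without LE6. Of all tested genes, 24.1% and 23.1% passed with those first 2 settings and 19.7% and 15.7% without KE4 and LE6, against 19.8%. In Gpr124ΔC/ΔC against WT they numbered 2 (Dll1 and Hey1) with upper-quartile factors, a mean of at least 50 counts, DESeq2, the 2 genotypes only and the letter, 0 with limma without a filter, and 1 to 2 without 1 library, with 2 without KE4 or ME5. Of all tested genes, 4.0%, 5.9%, 6.44%, 4.7%, 5.9% and 1.12% passed in those 6 settings and 4.23% and 4.89% without KE4 and ME5, against 4.09%. Between the mutants they numbered 0 with the letter, where 1.27% of all genes passed, against 8.82%. The pathway list counted 6, 5 and 5 in Gpr124-/- against WT with the 3 limma settings, against 10, and 8 with the letter, where 5 of the 10 calls were kept and Dtx3, Nrarp and Rfng were added, and it counted 7 to 10 without 1 library, with 7 without LE6, ME1 or ME5, where 15.7%, 15.6% and 17.4% of all genes passed. Of all tested genes, 14.5%, 14.2% and 7.37% passed with limma and 6.16% with the letter, against 19.8%. In Gpr124ΔC/ΔC against WT it counted 1 with DESeq2 and 2 with the letter. Between the mutants it counted 10 with DESeq2, 2 with the 2 genotypes only, 3 with the letter, 1, 1 and 0 with limma, and 1 to 6 without 1 library, with the lowest value without ME1. The shares of all genes were 12.7%, 7.19%, 1.27%, 5.58%, 5.29% and 2.24% in those settings and 5.19% to 11.2% without 1 library, against 8.82%. The call of Notch1 between the mutants was lost in 14 alternatives. The causes were not tested, except that the letter term leaves 1 pair to link Gpr124-/- to WT. No paired analysis was possible because the labels give no replicate numbers shared between genotypes, and the embryo letter was fitted as a term instead. Depth limits Notch3, Hey2 and Dll1 most, at 24 to 421 reads per library.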
